A study of Bos taurus with 18 samples.

Results

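Cumulus cells from bovine follicles that had coasted for 68 h were compared with those that had coasted for 44 h, with both sets of follicles in the same size class. Coasting is the interval between the last dose of follicle-stimulating hormone (FSH) and the collection of the oocytes. The comparison used 12 of the 18 arrays of the series and 6 of its 9 replicate values. They comprised every array on which 68 h or 44 h RNA was hybridised against 20 h RNA. The difference was formed as the log2 ratio of 68 h to 20 h minus the log2 ratio of 44 h to 20 h, with 3 values on each side. Each value was the mean of 2 arrays with opposite dyes. The 92 h replicates entered only the estimate of the spread.

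The cells came from 6 Holstein cows in milk, 4 years old on average, each of which went through all the coasting times in separate oestrous cycles. In every group the dominant follicle had been removed 36 h before treatment, and 6 doses of 40 mg of FSH were then given at 12 h intervals over 3 days. The 68 h group had 68 h without FSH and follicles of 6 to 8 mm. The 44 h group had 44 h without FSH and follicles of 6 to 8 mm. The shared partner channel held 20 h cells from follicles of 3 to 5 mm, so coasting time differed between the 68 h and 44 h groups and the labelled size class did not. The labels give 3 biological replicates per group without naming the cows in each. The p-values therefore measure the spread between these samples, with that of the 92 h replicates pooled in.

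Cumulus cells are the granulosa-derived cells that enclose the oocyte. They feed it through gap junctions at the tips of fine projections that cross the zona pellucida, and they hold it in meiotic arrest until the ovulatory signal. FSH drives their division, their aromatase and their inhibin and activin subunits, and its withdrawal leaves the growing follicle to depend more on luteinising hormone and on factors from the oocyte. After the ovulatory surge the same cells build a matrix of hyaluronan and its binding proteins, the process called cumulus expansion.

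All 19 cumulus and granulosa marker genes on the list passed the filter on dim probes, and 12 of them were above background on all 12 arrays in the coasted channel. FSHR, the FSH receptor, INHA and INHBA, which encode inhibin and activin subunits, and GJA1, the connexin of cumulus gap junctions, were among those 12. FOXL2, a granulosa transcription factor, was detected on 3 of the 6 arrays at 68 h and on 0 of the 6 at 44 h. Of the markers of other cells, 7 of 15 endothelial, 6 of 13 erythrocyte, 10 of 19 leukocyte, 11 of 19 oocyte and 15 of 19 theca and stroma genes passed the filter. Their numbers above background on all 12 arrays were 0, 0, 2, 2 and 7 in the same order. In these bulk samples, fewer cells of a type and less RNA per cell cannot be told apart.

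The median raw intensity of an array was between 129 and 312 for Cy3 and between 102 and 257 for Cy5. Between 26.5 and 66.2% of gene probes were above background in the 68 h channel and between 41.8 and 62.7% in the 44 h channel. Across genes, the correlation between replicates lay between 0.14 and 0.49 at 68 h and between -0.18 and 0.18 at 44 h. The median SD of a gene over the 3 replicates was 0.14 at 68 h and 0.22 at 44 h on the log2 scale, and 32.9% of genes had the larger SD at 68 h. With 3 values per time, the precision of each difference is limited by the number of replicates. Slide 71 held the 4 arrays of 68 h replicates 1 and 2, while slides 72 and 73 each held 1 array of 68 h replicate 3 and 3 arrays of 44 h, so the time and the slide were partly confounded.

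The comparison runs through the 20 h channel, which was therefore compared first. Between the 20 h channels of the 68 h arrays and those of the 44 h arrays, 0 of 11044 genes had a limma adjusted p under 0.05, and 76 (0.688%) had an unadjusted p under 0.05. With the 3 pairs described next as a block, an alternative chosen after the data were seen, 0 genes passed and 565 had an unadjusted p under 0.05, which does not show that these channels were equal. The median absolute difference was 0.03 on the log2 scale, against 0.10 for the 68 h minus 44 h difference of ratios. The 20 h channels fell into 3 pairs across the groups. After the mean of each group was removed, the 20 h channel of 68 h replicate 1 correlated with that of 44 h replicate 2 (r = 0.946), that of 68 h replicate 2 with that of 44 h replicate 3 (r = 0.940), and that of 68 h replicate 3 with that of 44 h replicate 1 (r = 0.929). The other 6 pairs, those of equal number included, had r from -0.664 to -0.243. These correlations are across genes, which are not independent replicates.

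**Figure D1:**
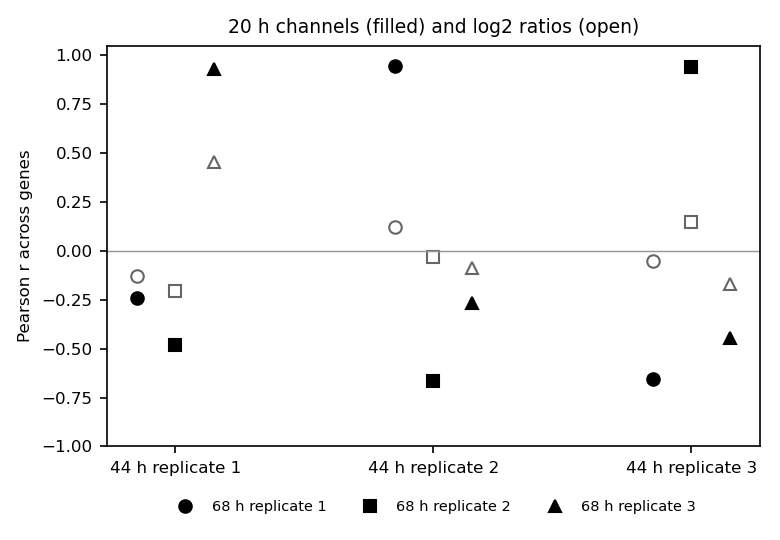
Pearson correlation across genes between each 68 h replicate (marker shape) and each 44 h replicate (horizontal position), after removal of the group means. Filled markers are the 20 h channels and open markers the log2 ratios. The 3 pairs with r of 0.929 to 0.946 join 68 h replicates 1, 2 and 3 to 44 h replicates 2, 3 and 1.

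No gene passed the threshold between 68 h and 44 h. With limma, 0 of 11044 genes (0%) had an adjusted p under 0.05, and the smallest adjusted p was 0.50. The unadjusted p was under 0.05 for 597 genes (5.41%), and 552 is the count for that level if nothing differed. Of these, 290 (2.63%) were higher and 307 (2.78%) lower at 68 h. The 3 values at 68 h did not overlap the 3 at 44 h in 1145 of 11018 genes with all 6 values (10.4%), 558 (5.06%) of them higher and 587 (5.33%) lower. With 3 values on each side such separation also arises where nothing differs, so it does not by itself mark a gene out. Against the common 20 h cells, 0 genes passed at either time, while 1217 (11%) had an unadjusted p under 0.05 at 68 h and 1056 (9.56%) at 44 h.

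The differences were small for most genes and the error was wide. The median absolute difference was 0.10 on the log2 scale, the median standard error 0.17 and the median half-width of the 95% interval 0.39. The missing calls therefore do not show that expression was equal at the 2 times. In all, 66 genes were at least 2-fold higher and 58 at least 2-fold lower at 68 h, and in 16 and 48 of these the replicates did not overlap. Among the 66 genes, 44 h replicate 3 held the lowest of the 6 values in 55. Among the 58 genes, 44 h replicate 2 held the highest value in 55 and 68 h replicate 3 the lowest in 46. The median over all genes was 0.01.

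VCAN had the lowest value of the genes without overlap. It encodes versican, a large proteoglycan that binds hyaluronan in the follicular and cumulus matrix. Its log2 ratios to 20 h were -1.79, -1.84 and -1.51 in 68 h replicates 1, 2 and 3, against 0.43, 0.87 and 0.13 in 44 h replicates 1, 2 and 3. All 3 values at 68 h were below the 20 h level and all 3 at 44 h above it. The difference was -2.19 (SE 0.79, 95% interval -4.06 to -0.32, limma adjusted p = 0.764). The SE also pools the spread of the 92 h replicates, while the SD of the 3 values was 0.18 at 68 h and 0.37 at 44 h. The difference lay between -2.37 and -1.99 when any 1 of the 6 replicates was left out. Within slides 72 and 73, where 68 h replicate 3 alone stands for 68 h, it was -1.99.

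PDIA3 encodes a protein disulfide isomerase that folds glycoproteins in the endoplasmic reticulum. It had log2 ratios of -2.19, -1.18 and -1.62 at 68 h, against 0.12, -0.21 and 0.78 at 44 h. Like VCAN, it was picked from the genes whose replicates did not overlap, so the lack of overlap was set by the choice. The difference of -1.89 had an SE of 0.43, a 95% interval of -2.90 to -0.88 and a limma adjusted p of 0.50. The value within slides 72 and 73, from 68 h replicate 3 alone on the 68 h side, was -1.85. CMTM4, a membrane protein of the MARVEL domain family, read -1.04, -1.02 and -1.39 at 68 h, against 0.20, 0.90 and -0.38 at 44 h (difference -1.39, SE 0.37, limma adjusted p = 0.50). A second, dimmer CMTM4 probe gave a difference of 0.06.

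The 12 genes of smallest unadjusted p on the lower side had smaller differences than these 3. WARS1, the cytosolic tryptophan-tRNA ligase, had the smallest p of all genes (limma unadjusted p = 2.93e-04, adjusted p = 0.50). It read -0.34, -0.14 and -0.30 at 68 h, against 0.18, 0.26 and 0.12 at 44 h, a difference of -0.44. A second WARS1 probe, dimmer, gave 0.03. BCOR, a corepressor that works with BCL6, read -0.42, -0.42 and -0.32 at 68 h, against 0.13, 0.14 and 0.43 at 44 h. HOXB2, a homeobox transcription factor gene, differed by -0.43. Its 68 h and 44 h channels compared directly differed by -0.20, and its 20 h channels by 0.23. NSF, the ATPase that takes apart SNARE complexes after membrane fusion, differed by -0.35. NSF was the tightest of these, with -0.36, -0.28 and -0.29 at 68 h, against 0.02, 0.07 and 0.04 at 44 h.

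Of the other 8 lower genes chosen by p, CENPS, a histone-fold protein of the centromere, differed by -0.75. Its 2 dimmer probes gave -0.33 and -0.12. WDR36, a nucleolar factor of ribosome assembly, differed by -0.41, the serine protease gene TMPRSS3 by -0.41, the chemokine gene CCL16 by -0.32 and SCG3, a granin of secretory granules, by -0.92. TCAF1, LRCH4 and LOC504861 differed by -0.85, -0.43 and -0.61. A dimmer probe of LRCH4 gave 0.08, and those of TCAF1 gave -0.15 and 0.00. In all 12 genes, chosen by p from these same values, the 3 replicates at 68 h lay below the 3 at 44 h. The limma adjusted p was 0.50 for each.

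**Figure D2:**
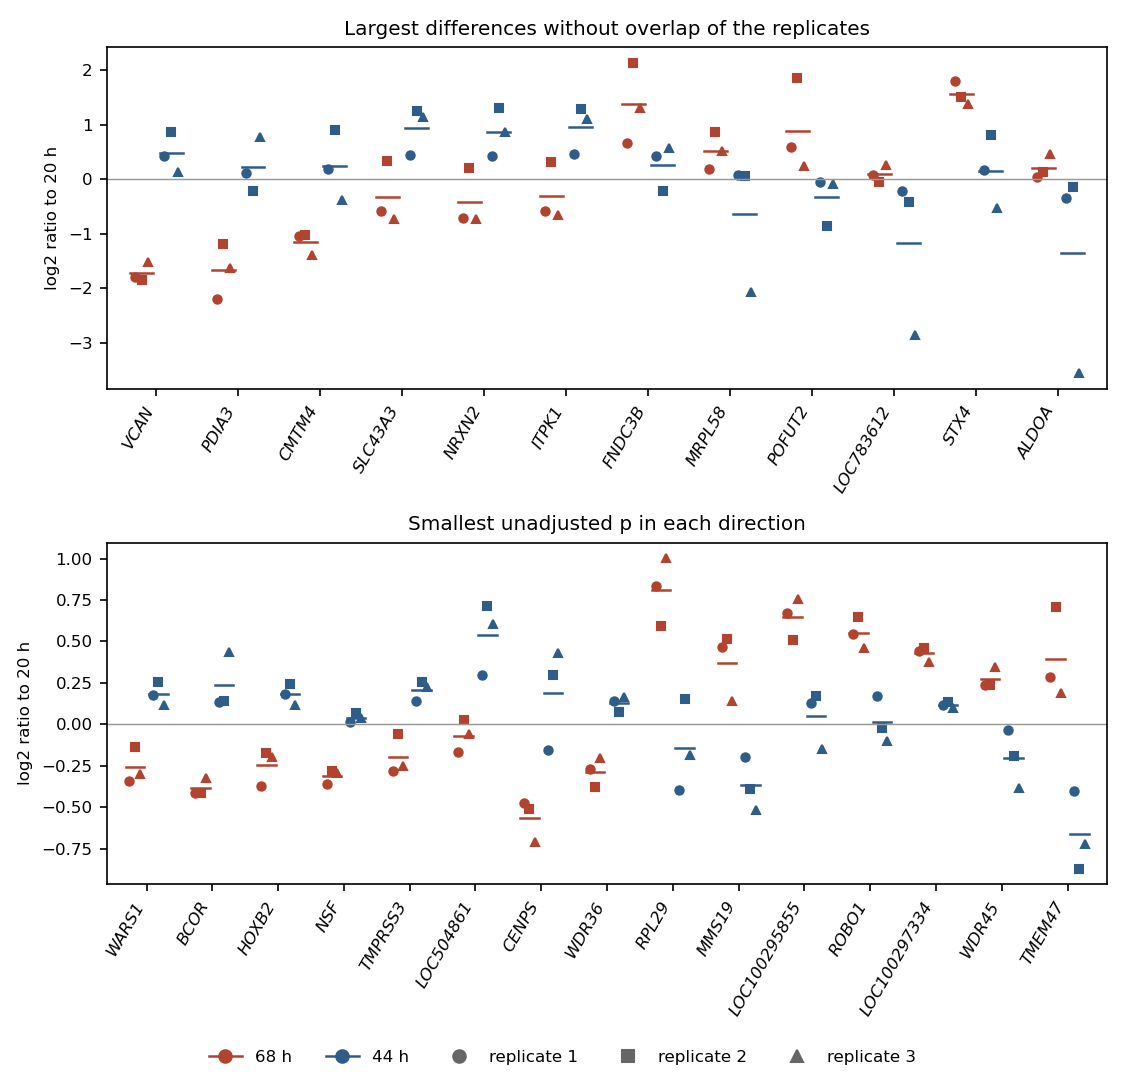
Log2 ratio to 20 h in each replicate (marker shape) at 68 h (red, left) and 44 h (blue, right), with the group mean as a bar. The upper panel shows the 6 largest differences without overlap in each direction, from VCAN at -2.19 to ALDOA at 1.56, and the lower panel 8 lower and 7 higher genes chosen by smallest unadjusted p. The low point of 44 h replicate 3 sets the means of MRPL58, LOC783612 and ALDOA.

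On the higher side, the smallest p belonged to RPL29, a protein of the large ribosomal subunit (limma unadjusted p = 4.45e-04, adjusted p = 0.50). Its log2 ratios were 0.83, 0.59 and 1.00 at 68 h, against -0.40, 0.15 and -0.19 at 44 h, a difference of 0.95 with a 95% interval of 0.59 to 1.32. RPS14, of the small subunit, read 0.10, -0.07 and 0.43 at 68 h, against -0.39, -0.84 and -1.13 at 44 h. Its difference was 0.94, and a second RPS14 probe of like brightness gave 0.98. Both genes were chosen by p from these same values. Their groups did not overlap, and neither gene passed the adjusted threshold.

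MMS19, which delivers iron-sulfur clusters to enzymes of DNA metabolism, read 0.46, 0.51 and 0.14 at 68 h, against -0.20, -0.39 and -0.51 at 44 h. ROBO1, a receptor for SLIT ligands, read 0.55, 0.65 and 0.46 at 68 h, against 0.17, -0.02 and -0.10 at 44 h. LBR, the lamin B receptor of the inner nuclear membrane, differed by 0.89, and TMEM47, a membrane protein of cell junctions, by 1.06. WDR45, a protein of autophagosome formation, differed by 0.48 (-0.07 with a dimmer probe). PRCP, a lysosomal carboxypeptidase, differed by 0.38, and POMT1, which starts O-mannosylation, by 0.42. LOC100295855 and LOC100297334 differed by 0.60 and 0.31. Each of these 9 genes, also chosen by p, was higher in all 3 replicates at 68 h than in any at 44 h. The limma adjusted p was 0.50 for each.

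Among the largest differences on the higher side, STX4, a SNARE protein of the plasma membrane, had 1.80, 1.5 and 1.39 at 68 h, against 0.17, 0.81 and -0.53 at 44 h. It differed by 1.41 (SE 0.32, 95% interval 0.66 to 2.17, limma adjusted p = 0.50) and was detected on all 6 arrays at 68 h but on 4 of the 6 at 44 h. FNDC3B differed by 1.11, with 1.02 and 0.61 in its other probes, and POFUT2, an O-fucosyltransferase of the endoplasmic reticulum, by 1.22 (95% interval -0.04 to 2.48). Without 68 h replicate 2 these differences were 0.72 for FNDC3B and 0.75 for POFUT2. The remaining 3 rested on 44 h replicate 3. ALDOA, the glycolytic aldolase A, read 0.05, 0.13 and 0.46 at 68 h, against -0.34, -0.14 and -3.55 at 44 h. Without 44 h replicate 3 its difference was 0.45 in place of 1.56. For LOC783612 it was 0.42 in place of 1.26, and for MRPL58, a peptidyl-tRNA hydrolase of the mitochondrial ribosome, 0.45 in place of 1.16.

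A set of genes had nearly the same profile over the 12 arrays. It was drawn up after the values had been seen, as the genes that correlated above 0.98 with the median profile of the genes most like ITPK1. ITPK1 was itself among the 6 largest lower differences without overlap. The narrow spread of the set and its lower values at 68 h therefore follow in part from the choice, and are a description. It held 82 genes and 152 probes, 67 of the probes without a symbol. Its members were of unlike function. They included SLC43A3, a purine base transporter, FADS1, a fatty acid desaturase, NOTCH1 and its modifier LFNG, the Wnt co-receptor LRP6, the basement membrane proteoglycan HSPG2, the phosphodiesterase PDE4B, the demethylating enzyme TET3, and the lymphocyte genes GZMB, LTA and SLAMF6.

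The median log2 ratio of these 82 genes was -0.51, 0.21 and -0.51 in 68 h replicates 1, 2 and 3, against 0.27, 1.09 and 0.85 in 44 h replicates 1, 2 and 3. The lowest of the 3 replicates at 44 h was above the highest at 68 h by a small margin. Single members differed by -1.27 to -0.55, with a median of -1.0. On each array the SD across the set was 0.10 to 0.18, while over all genes it was 0.24 to 0.70. The whole set was above background on all 12 arrays and had log2 intensities from 8.68 to 13.0, so it was not made of dim probes.

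The set also carried a dye effect. In every replicate its median was higher on the array with the coasted sample in Cy5, by 0.72 to 1.35. The 68 h minus 44 h difference was -1.09 with the coasted sample in Cy5 and -0.93 with it in Cy3. Between the coasted channels directly it was -1.08, and between the 20 h channels -0.08. Within slides 72 and 73, where 68 h replicate 3 alone stands for 68 h, it was -1.23. The part of the dye in this profile was not tested.

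**Figure D3:**
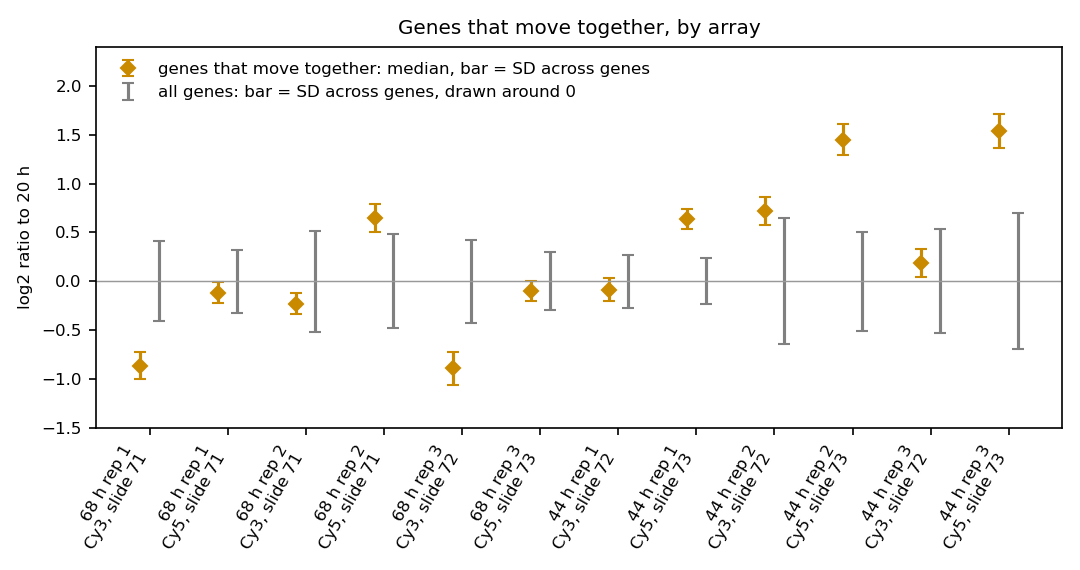
Median log2 ratio to 20 h of the 82 genes with a shared profile (diamonds, bar = SD across the genes) on each of the 12 arrays, 68 h on the left and 44 h on the right, with the SD over all genes drawn around 0 (grey). The spread within the set is narrower than that over all genes on every array, in part because its genes were chosen for a like profile. The Cy5 array of each replicate lies above its Cy3 array.

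These genes made up a large share of the lower side. All 82, chosen for a profile like that of ITPK1, a lower gene, were among the 307 genes lower at an unadjusted p under 0.05. This left 225 without them, against 290 on the higher side. They were 39 of the 48 genes at least 2-fold lower without overlap, and 13 of the 20 largest of these. ITPK1, an inositol phosphate kinase, differed by -1.26 and SLC43A3 by -1.27. NRXN2, a neurexin gene outside the set, read -0.70, 0.20 and -0.72 at 68 h, against 0.42, 1.30 and 0.86 at 44 h. A second, dimmer probe of it gave -0.07. The NRXN2 values were close to those of ITPK1, which read -0.58, 0.32 and -0.65 at 68 h, against 0.47, 1.3 and 1.11 at 44 h. Genes outside the cut of 0.98 can therefore have a profile like that of the set. VCAN, PDIA3 and CMTM4 were outside the set. With the set left out, 0 of 10962 genes passed and the smallest limma adjusted p was 0.725.

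The genes of the FSH response gave wide and overlapping values. CCND2, the D-type cyclin of granulosa cells, read -0.11, 2.44 and 0.63 at 68 h, against 0.36, -0.02 and -1.78 at 44 h. INHBA, the activin A subunit, read -0.50, 1.63 and 1.06 at 68 h, against 0.51, -0.99 and -1.06 at 44 h. In both genes the groups overlapped, with the highest value in replicate 2 at 68 h and the lowest in replicate 3 at 44 h. The difference of INHBA was 1.25 with a 95% interval of -1.04 to 3.54, and its 20 h channels differed by -0.78. CYP19A1, the aromatase that makes oestradiol, read -1.80, 0.73 and -0.12 at 68 h, against 0.06, -1.82 and -0.35 at 44 h, and its 95% interval of -2.15 to 2.77 covered large differences in either direction.

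Receptors and steroid enzymes gave smaller or unstable differences. FSHR differed by 0.40 (95% interval -0.44 to 1.25), and by 0.07 without 44 h replicate 3. INHA, the inhibin alpha subunit, differed by 0.07, HSD3B1, which converts pregnenolone to progesterone, by 0.15, and STAR, the cholesterol carrier of steroid synthesis, by -0.06. CYP11A1, the enzyme that cleaves the cholesterol side chain, read -1.14, -2.19 and 0.38 at 68 h, against 0.25, 0.52 and -3.77 at 44 h. Its difference was 0.02 and it was -1.37 without 44 h replicate 3. LHCGR, the luteinising hormone receptor, had 2 probes and PTGS2, the inducible prostaglandin synthase, had 3, and none passed the filter.

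Oocyte support and expansion genes are next. GJA1 read -0.02, 0.69 and 0.16 at 68 h, against -0.04, -1.44 and 0.46 at 44 h, a difference of 0.62 that was 0.07 without 44 h replicate 2. NPR2, the natriuretic peptide receptor that keeps cyclic GMP high for meiotic arrest, differed by 0.06 with a 95% interval of -0.22 to 0.33. HAS2, the hyaluronan synthase of expansion, differed by -0.04 and was detected on 3 of the 6 arrays at 68 h and 2 at 44 h. TNFAIP6, which links hyaluronan chains, was detected on 4 of the 6 arrays at 68 h and 2 at 44 h. Its difference was -0.12 with a 95% interval of -2.56 to 2.33, and it was 0.17 without 68 h replicate 1. GREM1, a BMP antagonist, differed by 0.02.

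Of the proliferation and growth genes, MYC read 0.53, 0.83 and 0.53 at 68 h, against 0.35, -0.70 and 0.16 at 44 h, without overlap. Its difference was 0.69 (95% interval 0.01 to 1.38, limma adjusted p = 0.917), and it was 0.38 without 44 h replicate 2. The mitotic cyclin CCNB1 was below the 20 h level in all 6 replicates, with -0.55, -1.74 and -0.51 at 68 h, against -0.47, -1.63 and -0.86 at 44 h, and differed by 0.05. PCLAF, a replication clamp partner, differed by -0.24. POLH, a translesion DNA polymerase, read -1.20, -0.91 and -1.13 at 68 h, against -0.47, -1.01 and -0.31 at 44 h, and overlapped in 1 replicate.

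**Figure D4:**
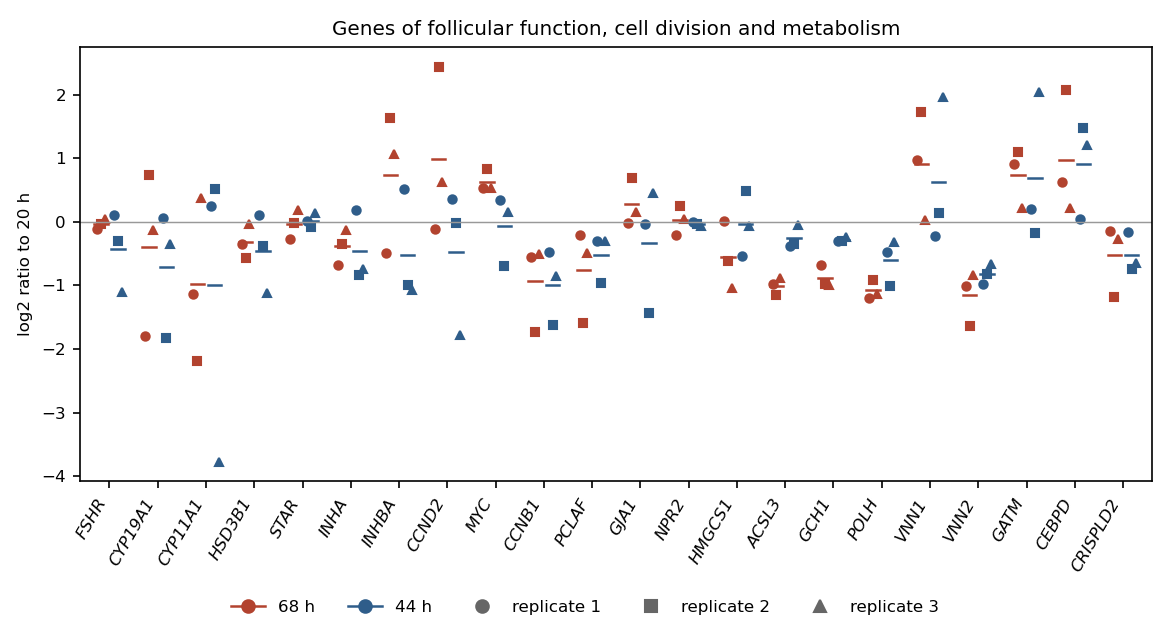
Log2 ratio to 20 h in each replicate (marker shape) at 68 h (red, left) and 44 h (blue, right) for genes of follicular function, cell division and metabolism, with the group mean as a bar. Values of CCND2, INHBA, CYP19A1 and CYP11A1 spread over more than 2 log2 units within a group, while ACSL3 and GCH1 stay apart without overlap.

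Of the metabolic genes of this panel, ACSL3 and GCH1 separated the 2 times without overlap. Over all genes, 5.33% were lower without overlap, and the panel was chosen with earlier results of these data known. ACSL3, which activates long-chain fatty acids, read -0.98, -1.15 and -0.89 at 68 h, against -0.39, -0.35 and -0.05 at 44 h. GCH1, the first enzyme of tetrahydrobiopterin synthesis, read -0.67, -0.98 and -1.0 at 68 h, against -0.31, -0.31 and -0.23 at 44 h. Both genes were below 20 h in every replicate of both times and lower at 68 h, by -0.75 (95% interval -1.16 to -0.33) and -0.60 (95% interval -0.95 to -0.26), with a limma adjusted p of 0.50. The 2 other ACSL3 probes gave -0.24 and -0.64, and the 3 other GCH1 probes, all dimmer, gave -0.16, -0.06 and -0.03.

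HMGCS1, of the cholesterol pathway, differed by -0.51 with overlap. The pantetheinase genes VNN1 and VNN2 differed by 0.28 and -0.34. VNN1 read 0.97, 1.73 and 0.02 at 68 h, against -0.22, 0.14 and 1.97 at 44 h, so that 1 replicate at 44 h exceeded all at 68 h. GATM, of creatine synthesis, differed by 0.05 and CEBPD, a transcription factor gene, by 0.06, with 95% intervals of -1.46 to 1.56 and -1.23 to 1.35. CRISPLD2, a secreted protein gene, differed by -0.01. The angiogenic genes NRP1 and PGF differed by 0.90 and 0.26, both with overlap. NRP1 differed by 0.14 without 44 h replicate 2. PGF differed by -0.66 without 44 h replicate 3 and by 0.79 without 44 h replicate 2.

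Gene lists were read by counts and medians. No member of the 28 lists of function or the 6 marker lists passed the adjusted threshold with limma, against 0% of all genes. Of 703 listed genes tested, 40 (5.69%) had an unadjusted p under 0.05, against 5.41% of all genes. The highest median belonged to the cytosolic ribosomal proteins, with 22 of 29 members above 0 and a median of 0.32, beside 53.2% of genes above 0 and a median of 0.01 over all genes. Of the 29, 2 were higher and 0 lower at an unadjusted p under 0.05, and 4 were higher without overlap (5.06% over all genes).

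RPS14 and RPLP2, an acidic stalk protein, were the 2 members under that p. RPL29 was not on the list. RPLP2 read 0.30, 0.35 and 0.70 at 68 h, against -0.32, 0.01 and 0.29 at 44 h, and its partner RPLP1 read 0.15, 0.78 and 0.53 at 68 h, against -0.11, 0.23 and -1.23 at 44 h. The list medians of the log2 ratio were 0.25, 0.34 and 0.23 in the 68 h replicates, against 0.05, 0.11 and -0.14 in the 44 h replicates. The groups did not overlap. Without 44 h replicate 3 the median difference was 0.17 in place of 0.32. It stayed above 0 in all 26 alternatives, but several of these change only the estimate of the spread and cannot move a median. The list's members were bright, with a median log2 intensity of 14.4.

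Other lists of protein turnover and energy had smaller positive medians. The lysosome list had 17 of 22 members above 0 and a median of 0.16. Its 2 members of smallest p were lower at 68 h. LIPA, the lysosomal acid lipase, read -0.68, -0.46 and -0.69 at 68 h, against 0.16, 0.02 and -0.10 at 44 h, and TFEB, a transcription factor for lysosomal genes, differed by -0.62. The third by p, ATP6AP1, an accessory subunit of the lysosomal proton pump, was higher at 68 h by 0.37 without overlap. Of the 22 members, 3 were higher and 2 lower without overlap, against 5.06% higher and 5.33% lower over all genes. The proteasome list had 21 of 32 members above 0 and a median of 0.13, and its member of smallest p, PSMD12, differed by -0.42. The oxidative phosphorylation list had 20 of 30 above 0 and a median of 0.13, while CYCS, cytochrome c, read -0.89, -0.34 and -0.36 at 68 h, against 0.12, -0.12 and 0.15 at 44 h. The median of the lysosome list was 0.06 without 44 h replicate 3. That of the oxidative phosphorylation list was 0.04 without 44 h replicate 3 and 0.02 without 44 h replicate 2, and that of the proteasome list was 0.21 without 44 h replicate 3.

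The glycolysis list had 14 of 22 members above 0 and a median of 0.14. Without 44 h replicate 3 the median was -0.23, so its sign rested on that library. PDK1, a kinase that restrains pyruvate dehydrogenase, was lower at 68 h without overlap (difference -0.51), with 0.13 and 0.06 in its dimmer probes. In the antioxidant list, with a median of 0.03, HMOX1, haem oxygenase, read 0.36, 0.81 and 0.60 at 68 h, against 0.04, -0.51 and -0.38 at 44 h. GPX4 read 0.02, -0.80 and 0.86 at 68 h, against -0.64, -1.17 and -3.67 at 44 h, and overlapped.

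**Figure D5:**
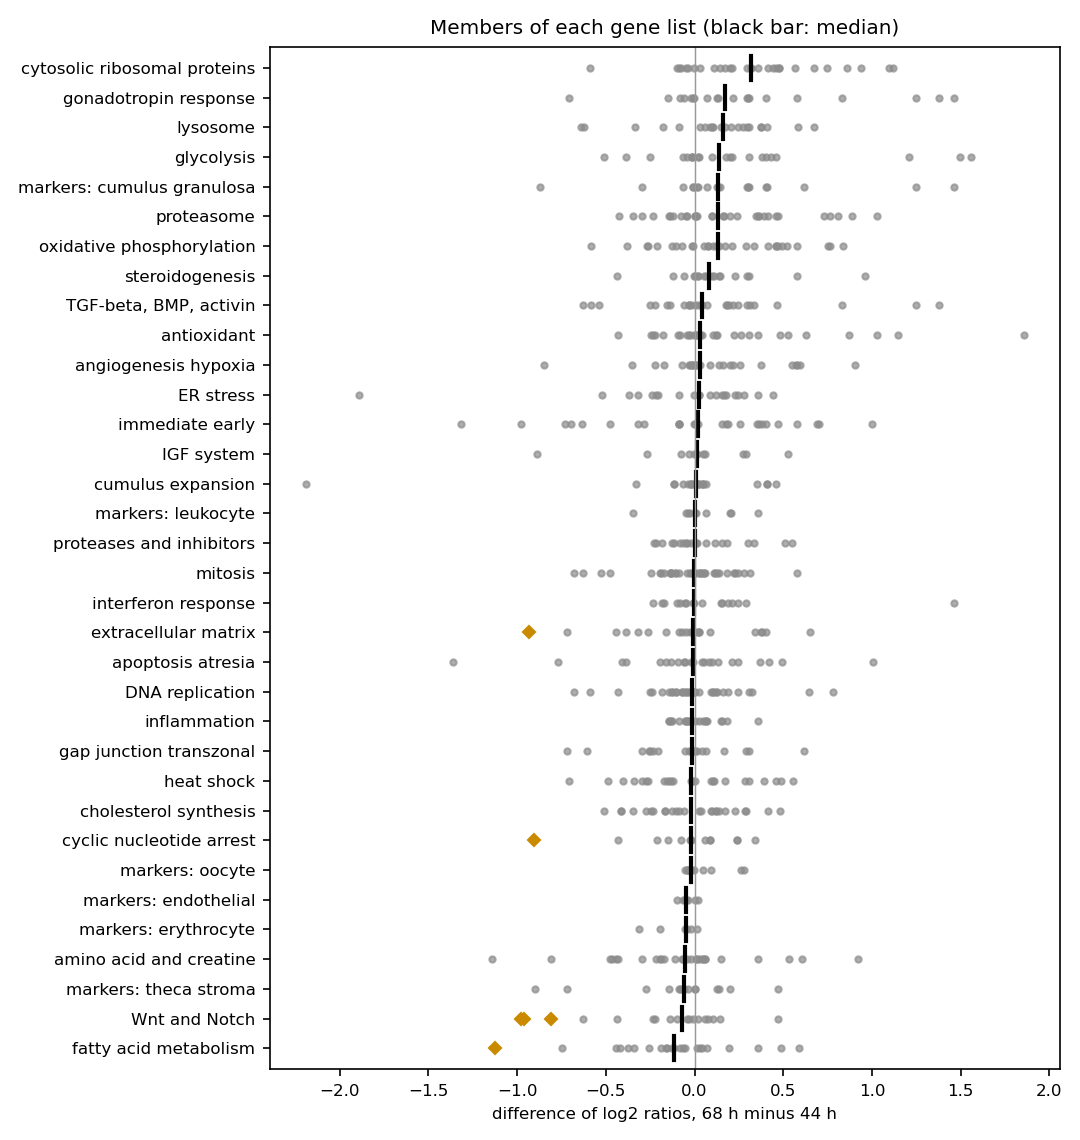
Difference of log2 ratios, 68 h minus 44 h, for each member of the 34 gene lists (grey points), with the median of the list as a black bar and members of the 82-gene set as orange diamonds. Cytosolic ribosomal proteins have the highest median at 0.32 and fatty acid metabolism the lowest at -0.11.

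Lists of cell division and sterol synthesis had medians close to 0 that turned sign with the library left out. The mitosis list had 18 of 37 members above 0, the DNA replication list 14 of 35 and the cholesterol list 13 of 26, with medians of -0.00, -0.01 and -0.02. The mitosis median was 0.23 without 68 h replicate 2 and -0.19 without 44 h replicate 2. The DNA replication median was 0.13 without 68 h replicate 2 and -0.11 without 44 h replicate 3. The cholesterol median was 0.14 without 44 h replicate 2 and -0.14 without 44 h replicate 3. Without overlap, 2 of 37 mitosis, 1 of 35 DNA replication and 0 of 26 cholesterol members were lower at 68 h, against 5.33% of all genes. In the same lists 0 members were higher without overlap, against 5.06% of all genes. KIF11, the spindle kinesin, read -0.54, -1.28 and -0.39 at 68 h, against -0.18, 0.05 and -0.03 at 44 h. RRM1, the large subunit of ribonucleotide reductase, read -0.52, -0.79 and -0.71 at 68 h, against -0.06, -0.05 and 0.12 at 44 h. At an unadjusted p under 0.05, 2 members of the mitosis list, 1 of the DNA replication list and 0 of the cholesterol list were lower and 0 of any of them higher, against 2.78% lower and 2.63% higher over all genes. The other mitosis member was DLGAP5, a spindle protein that differed by -0.53.

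The fatty acid list had the lowest median, -0.11, with 8 of 23 members above 0, and its members of smallest p were ACSL3 and FADS1. Without FADS1, which belonged to the 82-gene set, the median was -0.10. The Wnt and Notch list had 5 of 18 members lower at an unadjusted p under 0.05 (2.78% over all genes), and 3 of the 5 belonged to the set. Without these, 2 of 15 remained and the median was -0.03 in place of -0.07. One of those 2 was JAG2, a Notch ligand that differed by -0.63 (-0.09 and -0.01 in dimmer probes). PDE4B in the cyclic nucleotide list and HSPG2 in the matrix list were also of the set.

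Among the lists of follicular signalling, the gonadotropin response list had 13 of 20 members above 0 and a median of 0.17, the second highest of the 34 lists. It was 0.03 without 44 h replicate 3, with 0 members at an unadjusted p under 0.05. The steroidogenesis list had a median of 0.08 and 0 of 19 members under that p, and its median was 0.02 without 44 h replicate 2 and -0.00 without 44 h replicate 3. The expansion list, with a median of 0.01 over 23 members, included VCAN, which differed by -2.19. In the same list ERBB3, a receptor of the EGF family, read 0.49, 0.36 and 0.37 at 68 h, against 0.13, -0.06 and -0.07 at 44 h. BTC, an EGF-like ligand, differed by 0.46 (-0.10 and -0.27 in dimmer probes). Of the 23 members, 3 were higher and 1 lower without overlap, against 5.06% higher and 5.33% lower over all genes. At an unadjusted p under 0.05, 1 was higher and 1 lower, against 2.63% higher and 2.78% lower over all genes. IGFBP7, an IGF-binding protein, differed by 0.27 without overlap and TGIF1, a corepressor of TGF-beta signalling, by -0.58.

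Matrix and protease genes differed in both directions. Members ran from -0.94, in HSPG2, to 0.65 in the matrix list and from -0.23 to 0.55 in the protease list. CCN3, a matricellular protein, read 0.68, 0.57 and 0.59 at 68 h, against 0.16, 0.17 and 0.50 at 44 h. CTSB, the protease cathepsin B, read 0.30, 0.10 and 0.39 at 68 h, against -0.20, -0.46 and -0.20 at 44 h, a difference of 0.55 with a 95% interval of 0.25 to 0.85 and a limma adjusted p of 0.50. MMP2, a gelatinase, differed by -0.22 and ADAMTS5, a versican-cleaving protease, by -0.18, both without overlap and with values close to background. Of the 21 protease members, 1 was higher and 2 lower without overlap, against 5.06% higher and 5.33% lower over all genes. At an unadjusted p under 0.05 the counts were also 1 and 2, against 2.63% higher and 2.78% lower over all genes. The matrix list and the protease list had medians of -0.01 and 0.00.

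Amino acid, stress, apoptosis, interferon and inflammation lists had medians from -0.05 to 0.03. The interferon median was 0.47 without 68 h replicate 1, 0.35 without 44 h replicate 1 and -0.20 without 44 h replicate 2, and the amino acid median was -0.23 without 44 h replicate 3. The endoplasmic reticulum stress median was 0.12 without 44 h replicate 1 and -0.09 without 44 h replicate 3. In the endoplasmic reticulum stress list, DNAJB11, a co-chaperone of BiP, read -0.47, -0.42 and -0.73 at 68 h, against -0.17, -0.17 and -0.16 at 44 h, in the same direction as PDIA3. PDIA4, another disulfide isomerase, differed by 0.09 near background. Of the 21 members, 2 were lower and 0 higher at an unadjusted p under 0.05, against 2.78% lower and 2.63% higher over all genes. SHMT1, of serine metabolism, differed by -0.81 and BAG3, a partner of HSP70, by -0.71, both with overlap. AHSA1, an activator of HSP90, differed by 0.55 without overlap.

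Markers of other cell types differed little as lists. The endothelial, erythrocyte, leukocyte, oocyte and theca and stroma lists had median differences of -0.05, -0.05, 0.01, -0.02 and -0.06. Their median log2 ratios per replicate lay between -0.06 and 0.03 at 68 h and between -0.04 and 0.15 at 44 h. In the theca and stroma list the replicate medians were -0.01, 0.00 and -0.01 at 68 h, against 0.01, 0.01 and 0.15 at 44 h, and in the endothelial list they were -0.01, -0.03 and -0.01 at 68 h, against -0.00, 0.02 and 0.02 at 44 h. In both of these lists the medians at 68 h lay below those at 44 h without overlap, by small amounts. Single markers differed more. PTPRC, the pan-leukocyte surface phosphatase, read -0.16, -0.08 and -0.10 at 68 h, against 0.08, 0.28 and 0.35 at 44 h, while CD68, a macrophage marker, differed by 0.36. MYH11, smooth muscle myosin, read 0.54, 0.48 and 0.28 at 68 h, against 0.05, -0.06 and -0.12 at 44 h, and was detected on 5 of the 6 arrays at 68 h and 3 at 44 h. DES, the muscle filament desmin, differed by -0.14. The cumulus and granulosa list had 14 of 19 members above 0 and a median of 0.13, which was 0.00 without 68 h replicate 3. The part of these cell types in the values above was not tested.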

How the data were processed

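After 2 rounds of RNA amplification, Cy3 or Cy5 was coupled to the product before hybridisation to Agilent slides, per the labels' protocols. The deposited scanner tables hold spot and local background intensity in both channels, uncorrected per the file headers. The deposited value table holds log2 ratios, with the background correction and the normalization not given in the sources used here. Against the scanner values of the same arrays it followed Cy5 over Cy3 (r from 0.590 to 0.863, slope 0.426 to 0.964, column medians -0.04 to 0.02), and it served as an alternative. Intensities were corrected with normexp (offset 50) and loess-normalized, with a weight of 0 for control spots. The sign of each ratio was set to coasted over 20 h, and the 2 dye orientations of a replicate, read as 1 pair of extracts because they share a number, were averaged. Log ratios understate the change of dim genes, and loess hides a shift of most genes.

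A probe counted as above background where it exceeded the negative controls by 2 of their SD over their mean, and was kept where this held on at least 50% of the arrays of any coasting time. This left 27381 probes, 12635 of them without a symbol. The platform annotation, updated through RefSeq, named 11044 genes, each by its brightest kept probe. Tests were those of limma 3.58.1 (lmFit, then eBayes; R 4.3.3) on the 9 values of 68, 44 and 92 h, with 1 coefficient per time, 6 residual and 1.13 prior degrees of freedom, two-sided, with Benjamini-Hochberg adjustment over all genes and a threshold of 0.05. The script was tested on simulated data. If the matched 20 h channels hold the same RNA, the 68 h and 44 h values are not independent, which the tests do not allow for. Named genes were the 12 of smallest p and the 6 largest without overlap per direction, 3 members of smallest p per list, and a panel of 30 genes; 1 gene on the higher side by p is not reported here. In all, 26 alternatives were run. The comparison, the gene lists, the panel and the tests were chosen with earlier results of these data known.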

Additional observations from a re-analysis of the deposited data

How the results depend on the processing

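The count of genes past an adjusted p of 0.05 between 68 h and 44 h was 0 in the fit as reported and in 25 of 26 alternatives, among them no background correction, median centring, other filters, the deposited value table and each dye alone. The exception was the slide as a random block over the 12 arrays (consensus correlation -0.16), which counts the 2 arrays of a replicate as separate samples. It gave 647 genes (346 higher, 301 lower), 52 of them in the gene lists (20 higher, 32 lower). Leaving out 1 replicate gave 0 in every case, both over all genes and in the lists. The replicate numbers did not pair the samples (r of the deviations -0.128, -0.0312 and -0.167), and the fit with the replicate block gave 0 genes, with 588 at an unadjusted p under 0.05. With the matched 20 h channels as a block, chosen after seeing the data, it gave 0 and 897.

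The count at an unadjusted p under 0.05, 597 as reported, was 903 without 44 h replicate 1, 995 without 44 h replicate 2, 230 with the slide set as a block and 214 within slides 72 and 73, where fewer samples remain. Median centring gave 354 higher and 131 lower, against 290 and 307 as reported. The cause was not tested. For the 20 h channels the count was 0 in every alternative run. Signal over background limits dim genes, whose ratios are compressed.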
